A study of Mus musculus with 106 samples.

Results

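In livers of wild-type (WT) mice given the FXR agonist GW4064, 381 of 22705 FXR ChIP-seq peaks (1.68%) lay on a Foxa2 ChIP-seq peak from livers with the same genotype and ligand. These FXR sites were chosen by that overlap, with 1 base in common being enough. The lists that chose them (FXR with GW4064 and Foxa2 with GW4064) therefore describe the sites and support nothing about them. Of the 381 sites, 59 (15.5%) lay in places also hit by LXR and by PPAR lists, 10 were hit by an LXR list alone, 11 by a PPAR list alone and 301 by neither.

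FXR is a nuclear receptor that binds bile acids and, mostly as a dimer with RXR, binds DNA at inverted repeats of a short half-site separated by a single base. In liver it is known for turning on bile acid export and for turning down bile acid synthesis through the repressor SHP (gene symbol Nr0b2). Foxa2 is a forkhead transcription factor of the hepatocyte lineage, called a pioneer factor because it can bind its motif in closed chromatin.

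The study set WT livers beside livers of Foxa2-KO mice, for which the PPAR labels give the alleles Foxa2loxP/loxP;Alfp.Cre, a Cre active in the liver lineage. Mice of the FXR, Foxa2 and ATAC samples were 8 to 12 weeks old, with GW4064, GW3965 (an LXR agonist), T09 (T0901317, an LXR agonist) or vehicle given by gavage 4 hours before harvest. The LXR and PPAR samples came from C57BL/6 mice of 3 months that received T09, vehicle, an agonist written only as GW (LXR), or GW3965 or GW4064 (PPAR). FXR was profiled in 2 samples per group, in WT and Foxa2-KO livers with GW4064 or vehicle. Foxa2 was profiled in 1 sample per group, in WT livers only, LXR in 1 WT or 3 Foxa2-KO samples, PPAR in 2, and ATAC in 3 per arm for GW4064 or 2 for the LXR agonists. These numbers and the gavage are those of the sample labels, while the series text gives other replicate numbers (3 for Foxa2, 4 for LXR and 2 for ATAC) and writes of injection. Each group has 1 peak list, so no value below has an error over animals and no test over samples was possible. Intervals in brackets are exact 95% binomial intervals, which cover counting only and treat neighbouring peaks as independent. Whole liver was used, so a peak cannot be assigned to a cell type, and the Foxa2 deletion cannot be checked from the peak lists.

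Sequence is shown first for the sites that reach a gene's promoter, because there the bases can be read. Among the sites outside the shared places described below, 16 of 320 (5.00%, interval 2.88 to 7.99) overlapped a RefSeq promoter window, which runs from 250 bases before to 50 bases after a start site, against 0.726% of all FXR peaks outside those places. The order was the reverse in the first 500 entries of the FXR list, with 5 of 107 sites (4.67%) against 40 of 342 other FXR peaks (11.7%). Windows were not available for every gene, so these shares rest on an incomplete set. The 16 sites touched 17 windows. The 5 printed here (RefSeq, GRCm38.p6, which is mm10) are the 250 bases before the start, 5′ to 3′ along the gene. Those of Abcb11, Sox12, C3 and Nr0b2 belong to sites named by the rule for named genes. The window of Cnnm3 was added after its values were seen, because it holds both an inverted repeat and a forkhead motif. The Akr1b7 window, not printed, holds a half-site and a forkhead motif. Capitals mark the half-site AGGTCA or its reverse complement TGACCT, an inverted repeat of that half-site around 1 base (AGGTCANTGACCT) with up to 3 mismatches, and the forkhead motifs TGTTTAC and TGTTTGC. All were searched on both strands, and a half-site inside an inverted repeat counts for both.
Abcb11: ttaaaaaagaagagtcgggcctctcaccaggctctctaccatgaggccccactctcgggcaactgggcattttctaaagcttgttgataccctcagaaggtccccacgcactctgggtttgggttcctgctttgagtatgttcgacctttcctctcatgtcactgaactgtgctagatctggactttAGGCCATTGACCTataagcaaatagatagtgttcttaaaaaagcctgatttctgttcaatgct
Cnnm3: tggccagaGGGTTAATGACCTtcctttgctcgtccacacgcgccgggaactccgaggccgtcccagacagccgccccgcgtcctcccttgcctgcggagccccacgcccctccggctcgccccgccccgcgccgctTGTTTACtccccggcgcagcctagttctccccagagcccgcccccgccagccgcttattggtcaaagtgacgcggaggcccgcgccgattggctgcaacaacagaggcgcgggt
Sox12: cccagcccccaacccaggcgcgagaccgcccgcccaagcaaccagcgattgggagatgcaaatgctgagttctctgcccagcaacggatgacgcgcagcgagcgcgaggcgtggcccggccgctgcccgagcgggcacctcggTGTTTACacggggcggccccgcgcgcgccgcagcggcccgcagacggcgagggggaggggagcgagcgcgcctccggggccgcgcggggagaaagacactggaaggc
C3: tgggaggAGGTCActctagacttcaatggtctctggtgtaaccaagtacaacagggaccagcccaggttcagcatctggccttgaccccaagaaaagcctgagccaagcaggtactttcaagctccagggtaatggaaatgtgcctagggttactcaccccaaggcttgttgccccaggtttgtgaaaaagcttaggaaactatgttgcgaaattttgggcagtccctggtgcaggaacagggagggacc
Nr0b2: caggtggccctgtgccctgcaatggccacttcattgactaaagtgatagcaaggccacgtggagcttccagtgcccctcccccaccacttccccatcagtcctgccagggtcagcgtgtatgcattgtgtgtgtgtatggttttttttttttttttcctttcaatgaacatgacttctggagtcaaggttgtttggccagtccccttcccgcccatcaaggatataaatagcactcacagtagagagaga

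The Abcb11 sequence lies at chr2:69342617-69342866, on the minus strand. It holds the inverted repeat AGGCCATTGACCT, with 1 mismatch, from 63 to 51 bases before the start site, within both the FXR peak and the Foxa2 peak. Only 27 of 32851 promoter windows (0.0822%) hold an inverted repeat with up to 1 mismatch, and 2 of 167 windows (1.20%) on other FXR peaks do. No forkhead motif was found in the Abcb11 window. The Cnnm3 sequence (chr1:36511617-36511866, plus strand) holds GGGTTAATGACCT, with 2 mismatches, under both peaks and 1 forkhead motif, 114 bases before the start, under the Foxa2 peak but outside the FXR peak. The Sox12 sequence (chr2:152398047-152398296, minus strand) holds 1 forkhead motif, under both peaks, and no half-site. The C3 sequence (chr17:57228137-57228386, minus strand) holds 1 half-site, under the Foxa2 peak but outside the FXR peak, and no forkhead motif. The Nr0b2 sequence (chr4:133553126-133553375, plus strand) holds neither, and its FXR peak covers only 24 bases of the window.

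Over the 17 windows, 6 (35.3%) held a half-site, against 16.3% of all 32851 windows and 18.6% of the 167 windows on other FXR peaks. A forkhead motif was found in 6 of 17 (35.3%), against 8.48% of all windows and 8.98% of those on other FXR peaks. The sites were chosen on Foxa2 peaks, and windows on other Foxa2 peaks were not set beside them. All these counts are over whole windows, so a motif need not lie under a peak. At Rbp4 the forkhead motif lay under neither peak. An inverted repeat with up to 2 mismatches was found in 2 of 17 windows, against 1.14% of all windows and 3.59% of those on other FXR peaks. With up to 3 mismatches the count was 4 of 17 (23.5%), close to the 22.2% on other FXR peaks and above the 11.4% of all windows. A match describes these letters and is not a measured binding site, and 17 windows are few.

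Some of the sites fell in places where every antibody of the series gave a peak. Merging the 23 ChIP lists left 102 regions, 389.5 kb in all, with at least 1 peak each of FXR, Foxa2, LXR and PPAR. These regions held 61 of the 381 sites (16.0%, interval 12.5 to 20.1), against 0.467% of all FXR peaks. A shared region must hold a Foxa2 peak, and every site lies on one by choice, so part of this gap is fixed by the rule. All 59 sites on both an LXR and a PPAR peak were among the 61, as the way the regions were drawn requires. Over all FXR peaks, 0.608% lay on both an LXR and a PPAR peak, 1.23% on an LXR peak and 0.956% on a PPAR peak.

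The sites in the shared regions were wide, and 34 of the 61 stood in the first 500 entries, with the rest as late as entry 20601. Their median width was 1849 bases, with a highest value of 15936, against 166 bases for the 320 sites outside. The first 8 entries of the FXR list were all of this kind. Of these, 6 lay in or within 10 kb of 1600014C10Rik on chromosome 7, between 38175727 and 38201419. Entry 4 and entry 10 lay on chromosome 17 near 39.8 Mb, over 100 kb from the nearest protein-coding gene, Esp38, and were held by all 6 LXR and all 8 PPAR lists. Entry 8, in Sfi1 (chr11:3184229-3200164), was 15936 bases wide, and its Foxa2 peak matched it over 15834 bases. Entry 14, 61062 bases from Axin2, was also held by all 14 LXR and PPAR lists. In all, 16 of the 61 sites were held by all 14 lists, and the median site was held by 11. Such counts were not taken for the other FXR peaks in these regions. Mutant livers had a listed FXR peak with GW4064 at 40 of the 61. Of all FXR peaks, 106 lay in the shared regions. That mutant list held 125 of all FXR peaks, of which 56 lay outside the regions. The count of 40 is thus not particular to the sites on Foxa2 peaks. Results below are therefore given for the 320 sites outside these regions unless stated.

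Outside the shared regions no site can lie on both an LXR and a PPAR peak, because such a place is a shared region by definition. An LXR list held 9 sites (2.81%, against 0.819% of all) and a PPAR list held 10 (3.12%, against 0.522%). The background is filtered less, as 48 of its FXR peaks lay on both an LXR and a PPAR peak. The sites were also wider and earlier in the FXR list than other FXR peaks, and these shares were not split by entry. Single lists held from 0 sites (LXR in mutant livers with vehicle, against 0.0487% of all) to 5 sites, or 1.56%. The lists with 5 were LXR in WT livers with GW, against 0.327% of all, and PPAR in mutant livers with GW4064, against 0.226%.

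Of these 19 sites, 3 were held by 4 or more PPAR lists. The site in Lars2, which encodes the mitochondrial leucyl-tRNA synthetase (chr9:123461898-123462134, entry 359), was held by 7 of 8 PPAR lists. The site in Jarid2, a partner of the Polycomb complex (chr13:44869497-44869721, entry 14998), was held by 6 of 8. A site 22871 bases from Zfp982 (entry 6735) was held by 4 of 8. These 3 were singled out after their values were seen. On the LXR side, the most lists were 3 of 6, at a site 1032206 bases from Lrrc4c.

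The order of entries in the 2 WT FXR lists has no stated meaning, since they carry no fold or q-value. All 19 lists that do carry a q-value run in order of rising q. Sites on Foxa2 peaks were crowded at the top of the FXR list. Outside the shared regions, 107 of the first 449 peaks (entries 1 to 500) lay on a Foxa2 peak, which is 23.8%. The share was 4.05% for entries 501 to 2000, 0.889% for entries 2001 to 10000 and 0.646% for the rest. The sites were also wider than other FXR peaks, with medians of 166 and 56 bases. Within the first 500 entries the widths were alike, with medians of 209 and 214 bases. In the last group, from entry 10001 on, they were 129.5 and 48 bases.

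**Figure D1:**
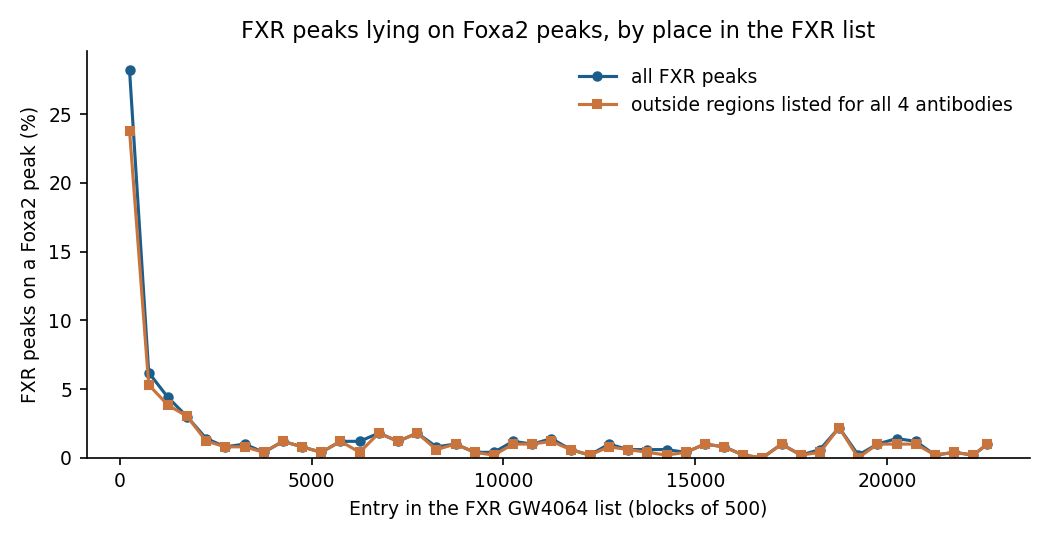
Share of FXR GW4064 peaks lying on a Foxa2 GW4064 peak (y axis, percent) in blocks of 500 entries of the FXR list (x axis), for all FXR peaks (circles) and outside the regions listed for all 4 antibodies (squares). The first block stands at 28.2% and 23.8%, the second at 6.20% and 5.31%, and later blocks are lower.

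The Foxa2 list showed the same tilt. Foxa2 peaks with an FXR site made up 34 of the first 487 Foxa2 peaks outside shared regions (6.98%), 4.30% of entries 501 to 2000, 1.97% of entries 2001 to 10000 and 0.514% of the rest. The FXR and Foxa2 centres lay close together. They were within 50 bases of each other at 148 of 320 sites (46.2%) and within 100 bases at 246 (76.9%), with a median distance of 54.5 bases. The FXR centre lay inside the Foxa2 peak at 255 sites (79.7%). Overlap itself was the criterion, so short distances are part of how the sites were chosen.

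**Figure D2:**
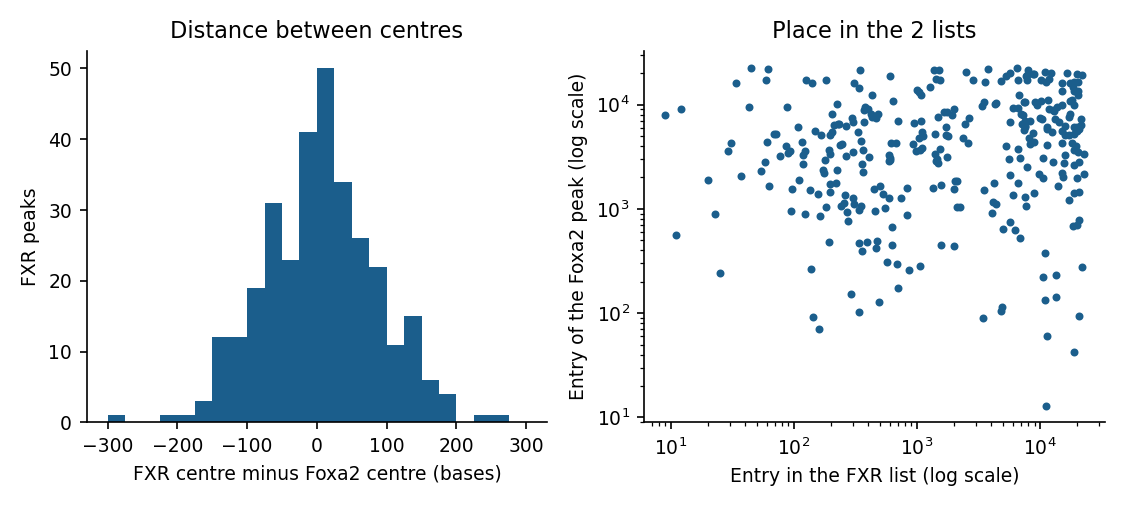
Left, FXR sites (y axis, number) by the distance in bases from the centre of the Foxa2 peak to the centre of the FXR peak (x axis), for 314 of 320 sites within 300 bases. Right, place of each of the 320 sites in the FXR list (x axis, log scale) and of its Foxa2 peak in the Foxa2 list (y axis, log scale), where sites early in the FXR list are spread over the Foxa2 list.

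At the edge of the criterion, the site in Macrod2 (chr2:140483828-140484261, entry 335) shared 2 bases with its Foxa2 peak and the site near Rbp4 (chr19:38125447-38125557, entry 5325) shared 3. Just outside it, an FXR peak nearest to Nab1 (chr1:52474540-52474594) adjoined a Foxa2 peak with 0 bases between. Another, nearest to Rora (chr9:69291173-69291409, entry 126), stopped 2 bases short.

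About 1 site in 3 was already listed for FXR without ligand. The FXR vehicle list held 105 of 320 sites (32.8%, interval 27.7 to 38.3), against 1.66% of all FXR peaks outside shared regions. With the shared regions kept, the counts were 153 of 381 (40.2%), against 1.98% of all FXR peaks. The share depended on the place in the list. In the first 500 entries, 68 of 107 sites (63.6%) were in the vehicle list, against 153 of 342 other FXR peaks (44.7%). From entry 501 to 2000 the counts were 14 of 60 (23.3%), against 2.88% of the others. From entry 10001 on, they were 12 of 82 (14.6%), against 0.286%.

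Foxa2 was listed with vehicle at 160 of 320 sites (50.0%, interval 44.4 to 55.6) in the vehicle list of the same experiment. Over all FXR peaks outside shared regions the share was 0.766%, but the sites were chosen on a Foxa2 list, so the background to read this against is that list. Of its peaks outside shared regions, 20.6% were in the vehicle list, against 171 of the 320 that carried an FXR site (53.4%). Foxa2 peaks with FXR stood earlier in the Foxa2 list, and within the first 2000 entries 91.6% or more of the Foxa2 peaks of either kind were in the vehicle list. From entry 2001 to 10000, 66 of 157 Foxa2 peaks with FXR (42.0%) were listed with vehicle, against 31.1% of those without. From entry 10001 on, 9 of 65 (13.8%) were, against 2.35%.

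The 3 other Foxa2 lists came from the LXR agonist experiment and hold no peak of 20 bases or narrower, while 15.6% of the Foxa2 GW4064 peaks are that narrow. The vehicle list there held 156 of 320 sites (48.8%, against 0.735% of all FXR peaks outside shared regions). The GW3965 list held 271 (84.7%, against 2.23%) and the T09 list 246 (76.9%, against 1.91%). Over all Foxa2 GW4064 peaks outside shared regions, 18.3%, 49.2% and 43.1% were in these 3 lists. Most of these Foxa2 positions were thus listed with other ligands as well.

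Joining both vehicle lists of the experiment sorts the 320 sites into 4 kinds. Both proteins were listed with vehicle at 60 sites (18.8%), FXR alone at 45 (14.1%), Foxa2 alone at 100 (31.2%) and neither at 115 (35.9%). Over all FXR peaks outside shared regions, the shares in the same order were 0.274%, 1.39%, 0.491% and 97.8%. The sites were chosen on a Foxa2 list, so the gaps that involve Foxa2 with vehicle largely restate the rule. The kind with both listed held Slc9a8, Cth, Sox12, Ccdc38, Tle3 and Mrnip among its earliest entries. The kind with FXR alone held Ptgds, Zc3h6, Rwdd3, Cdk8, Mafg and Slc8b1. Sites in neither vehicle list of the experiment began with Abcb11, Abhd2, Pik3r1, Macrod2, Adssl1 and Nr1i2. Their median entry was 7081, against 250.5 for sites with both listed with vehicle. The vehicle lists are shorter than the GW4064 lists (7883 against 22705 FXR peaks, and 7306 against 22666 Foxa2 peaks), and a gain with ligand was not tested.

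**Figure D3:**
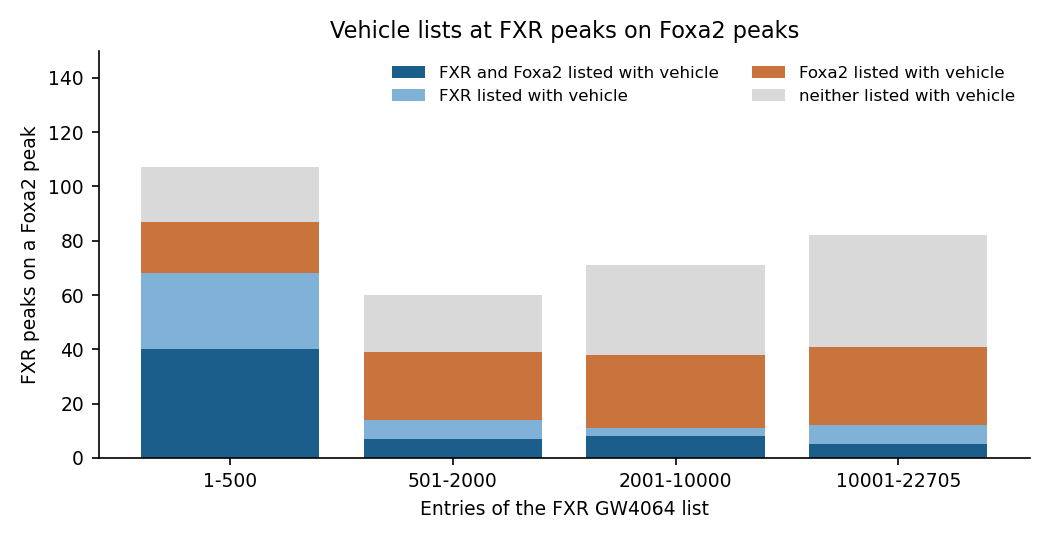
Number of FXR sites on Foxa2 peaks outside shared regions (y axis) in 4 ranges of entries of the FXR list (x axis), split by whether FXR, Foxa2, both or neither were in the vehicle lists. Sites with both listed number 40 in the first 500 entries and 5 from entry 10001 on, and sites with neither number 20 and 41.

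In Foxa2-KO livers very few of these sites were listed. The mutant FXR list with GW4064 held 4 of 320 (1.25%, interval 0.342 to 3.17), against 0.248% of all FXR peaks outside shared regions. Its vehicle list held 2 (0.625%), against 0.190%. The mutant GW4064 list has 3901 peaks. The WT vehicle list reduced to its first 3901 entries, a setting added after seeing the data, held 86 of the 320 sites (26.9%), against 1.27% of all. What that order stands for is not given. Other FXR peaks were also seldom listed in mutant livers. In the first 500 entries, the mutant GW4064 list held 2 of 107 sites (1.87%) and 10 of 342 other FXR peaks (2.92%). With the shared regions kept, the mutant list held 44 of 381 sites (11.5%), against 0.551% of all FXR peaks, and 40 of the 44 were in those regions.

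The 4 sites listed in mutant livers with GW4064 lay away from the genes of bile acid metabolism, as did most of the 320 sites. These 4 are named because they are few. The strongest by the authors' fold over input (4.57, q-value 7.1e-05) was 17822 bases from Gm1988 (chr7:39197330-39197908) and was also in the mutant vehicle list. The others were 1032206 bases from Lrrc4c (fold 1.54, q-value 0.000135), 30167 bases from Csf2ra (fold 2.63, q-value 0.00853) and in Ccdc7a (fold 3.41, q-value 0.0123). All 4 were at least 579 bases wide, against a median of 166 for the 320 sites, and 3 of the 4 were in an LXR or a PPAR list. Sites early in the WT list such as Ptgds, Cth, Mafg, Osgin1, Scarb1 and Abcb11 were in neither mutant list.

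**Figure D4:**
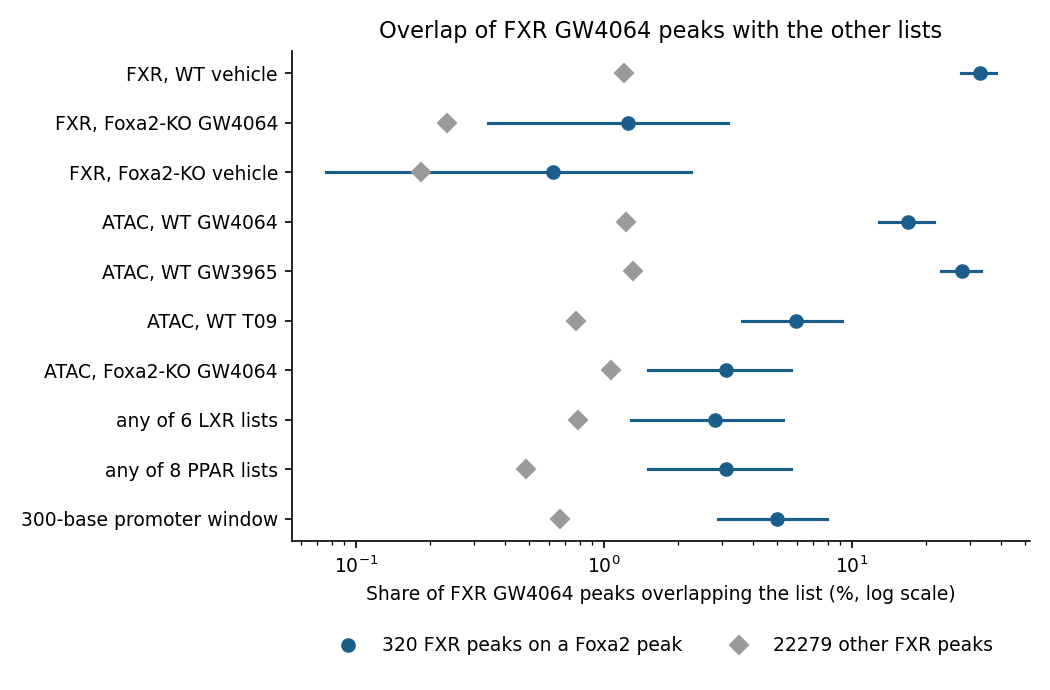
Share of FXR GW4064 peaks (x axis, percent, log scale) that overlap each list (y axis), for the 320 sites on Foxa2 peaks (circles, with exact 95% binomial intervals) and the 22279 other FXR peaks (diamonds), all outside regions listed for all 4 antibodies. The sites stand at 32.8% for the WT FXR vehicle list and 1.25% for the Foxa2-KO list with GW4064, and the other peaks at 1.21% and 0.233%.

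Chromatin that the ATAC lists call more open with a ligand than with vehicle covered a minority of the sites. The WT GW4064 list covered 54 of 320 (16.9%, interval 12.9 to 21.4), against 1.45% of all FXR peaks outside shared regions. The WT GW3965 list covered more, 89 (27.8%, against 1.68%), and the WT T09 list 19 (5.94%, against 0.845%). In Foxa2-KO livers, the GW4064 list covered 10 (3.12%, against 1.10%). That mutant list has 82561 regions covering 19.4 Mb, beside 60528 regions and 20.8 Mb for WT GW4064. Of the 61 sites in either GW4064 list, 51 were in the WT list only, 7 in the mutant list only and 3 in both. Over all 22599 FXR peaks outside shared regions, 1.31% were in the WT list only, 0.956% in the mutant list only and 0.142% in both. Those 3 were the later Osgin1 site and the sites nearest to LTO1 and Snx10. At least 1 ATAC list covered 141 of the 320 sites, against 4.42% of all.

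Among the first 500 FXR entries, the WT GW4064 ATAC list covered 21 of 107 sites (19.6%) and 61 of 342 other FXR peaks (17.8%), which are nearly equal shares. The GW3965 list covered 35 (32.7%) and 47 (13.7%). The mutant GW4064 list covered 6 (5.61%) and 20 (5.85%), so there the sites did not stand above the others. Its shares were 1.67% and 1.97% from entry 501 to 2000, and 0% and 1.01% from entry 2001 to 10000. From entry 10001 on, they were 3.66% and 0.873%. Lower in the list the WT GW4064 shares were further apart, with 23.3% against 2.18% from entry 501 to 2000. The regions over the sites were wide, with a median of 2051.5 bases in the WT GW4064 list, against 150 for that whole list. In the GW3965 list they were wide too, with a median of 1206 bases against 126 for that whole list, and their folds were small. In the authors' deposited table for GW3965 the median fold of ligand over vehicle at the 89 sites was 1.32, against 3.38 over all its regions. The WT GW4064 table used here carries no fold.

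The genes at the sites were first taken in the order of the FXR list. The first 25 sites with a protein-coding gene within 10 kb ended at entry 124. All 25 were in the FXR vehicle list and in the Foxa2 GW3965 list, and 10 were in the Foxa2 vehicle list of the same experiment. Of the 53 other FXR peaks up to that entry with a gene as near, 49 (92.5%) were in the FXR vehicle list, 26 in the Foxa2 GW3965 list and 0 in the Foxa2 vehicle list. The 25 lie on a Foxa2 GW4064 peak and the 53 on none, by choice, so their Foxa2 counts mostly restate the rule. Over all Foxa2 GW4064 peaks outside shared regions, 49.2% were in the GW3965 list and 20.6% in the vehicle list of the same experiment. None of the 25 sites and none of the 53 others was in a mutant FXR list or a PPAR list, and an LXR list held none of the 25 and 1 of the 53. The WT GW4064 ATAC list held 7 of the 25 and 14 of the 53, and the GW3965 list 11 and 16. The T09 list held 2 and 0, and the mutant GW4064 list 2 and 3. Their widths ran from 165 to 484 bases, and 14 lay inside a gene.

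The first of them was 2647 bases from Ptgds, prostaglandin D synthase (chr2:25472549-25472965, entry 9, width 417 bases). Its Foxa2 peak was entry 8000, with centres 5 bases apart. The site 1139 bases from Cth, which makes cysteine from cystathionine (chr3:157926098-157926343, entry 20), was entry 20 of the FXR vehicle list too. Its Foxa2 peak was entry 1891 with GW4064 and 2618 with vehicle. The site 5464 bases from Ass1, of the urea cycle, was nearer to Hmcn2 (chr2:31464683-31464930, entry 77). The site 7582 bases from Gch1, the first enzyme of tetrahydrobiopterin synthesis, was entry 96. The complement gene C3 had its site 112 bases before the start (chr17:57228128-57228369, entry 93). Membrane transporters were Slc9a8 (5232 bases away, entry 11), Slc8b1 (entry 43) and Slc12a3 (entry 60), the last pair with the site inside the gene.

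Mafg, a small Maf protein that represses bile acid synthesis genes, had its site inside the gene (chr11:120630634-120630847, entry 37). That site was entry 39 of the FXR vehicle list, and the authors' deposited table for GW3965 gives its ATAC region a fold of 1.34. Sox12, a transcription factor, had its site 121 bases before the start (entry 23), on Foxa2 entry 891 with GW4064 and 809 with vehicle. Its centre was 13 bases from the Foxa2 centre. Cdk8, the kinase of the Mediator complex, held entry 34 on a late Foxa2 peak (entry 16019). Tle3, a Groucho corepressor, had entry 54, and the site lay 4300 bases away. The others were at Zc3h6, Ccdc38, Rwdd3, Dnah8, Mrnip, Tshz2, Grn, Fermt1, Adgrl3, Mief2, Lrrn4, Kalrn and Zfp950. Foxa2 entries for these 25 sites ran from 245 at Ccdc38 to 22611 at Dnah8.

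**Figure D5:**
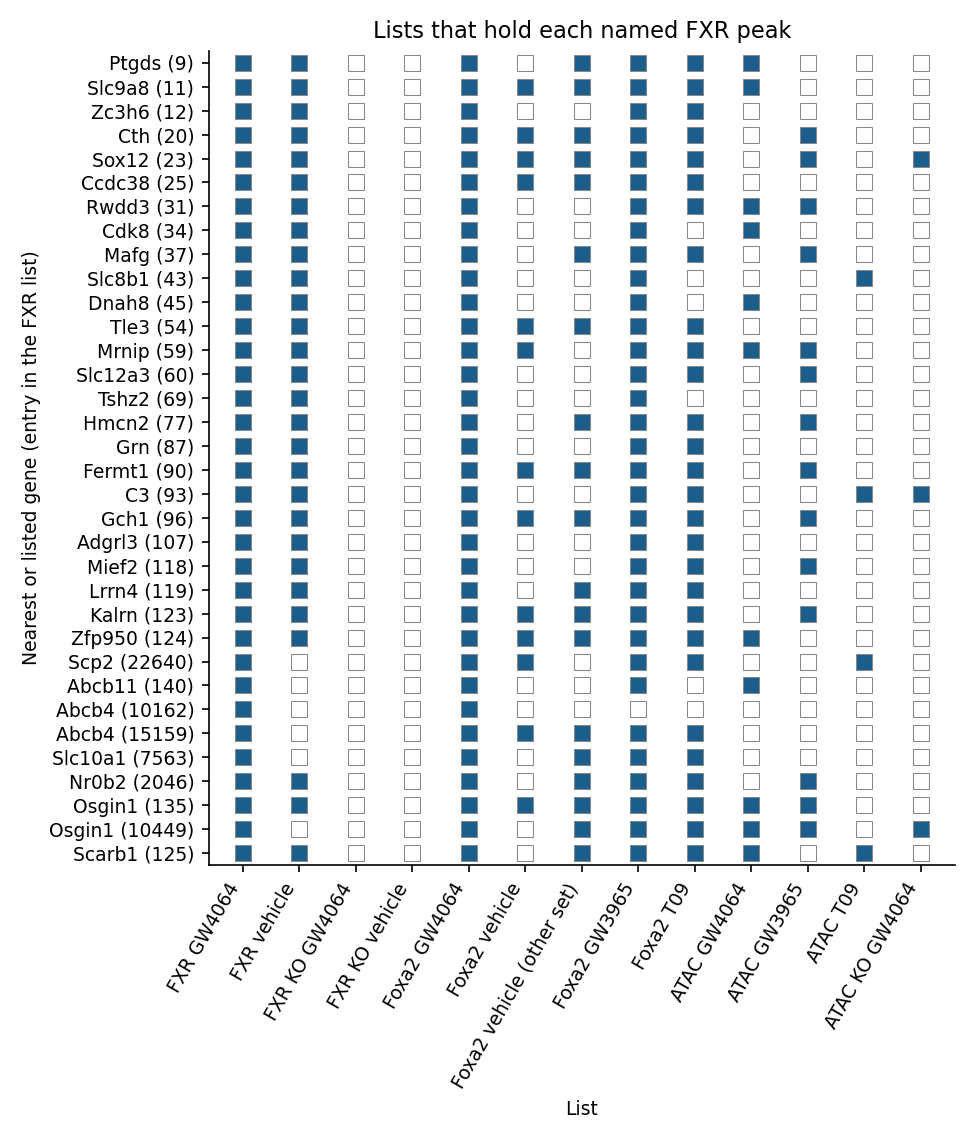
Named FXR sites on Foxa2 peaks (y axis, gene and entry in the FXR list) and the lists that hold them (x axis, filled square for listed, open square for not listed). All 25 sites from Ptgds to Zfp950 are filled for the FXR vehicle list, and no site is filled for the 2 Foxa2-KO FXR lists.

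Genes were then taken by function, from lists written with earlier results of these data known. Of 21 genes of FXR feedback and known FXR targets, 7 (33.3%) had a site in the gene or within 10 kb, against 1.06% of 21887 protein-coding genes. Of 14 bile acid transport genes, 3 did (21.4%), and of 12 genes of bile acid synthesis and conjugation, 1 did (Scp2). Any FXR peak outside shared regions was within 10 kb of 13, 10 and 5 genes of these 3 lists, against 30.4% of protein-coding genes. The FXR peaks at several of these genes were thus not on Foxa2 peaks.

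Bile acid transport is represented by the canalicular exporter, the phospholipid floppase and the sinusoidal uptake carrier. The site at the start of Abcb11, the bile salt export pump, spans chr2:69342574-69342799 and is entry 140 of the FXR GW4064 list. It was in no other FXR list. Its Foxa2 peak was entry 16005 with GW4064 and entry 5069 with GW3965, and was in neither Foxa2 vehicle list nor the T09 list. The WT GW4064 ATAC list held a region of 3051 bases over it, and the other 3 ATAC lists held none. Abcb4, which moves phosphatidylcholine into bile, had a site 7592 bases outside the gene (entry 10162) and one inside it (entry 15159). The first of them was in no other list. The second lay on a Foxa2 peak in all 5 Foxa2 lists, with entries 2193 with GW4064 and 1081 with vehicle of the same experiment. Slc10a1, the sodium-dependent bile acid importer, had a site 7320 bases away (entry 7563), listed for FXR only with GW4064, on a Foxa2 peak at entry 1303.

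Feedback and lipoprotein genes carried sites listed with vehicle as well. The site 303 bases before the start of Nr0b2, the repressor SHP, spans chr4:133552998-133553149 and stood earlier in the vehicle list (entry 183) than in the GW4064 list (entry 2046). Its Foxa2 peak was entry 1848 with GW4064, and was in the GW3965 list at entry 479 and in the vehicle list of that experiment at entry 1419. Scarb1, the HDL receptor, had a site inside the gene (chr5:125313406-125313623) at entry 125 with GW4064 and entry 171 with vehicle. Osgin1, an oxidative stress response gene, had a pair inside the gene. The earlier (chr8:119430250-119430549) was entry 135 with GW4064 and 81 with vehicle, and was in all 5 Foxa2 lists. The later (entry 10449) was in no other FXR list. A single WT GW4064 ATAC region of 8487 bases covered both. In bile acid synthesis, the site inside Scp2, a sterol carrier and peroxisomal thiolase, was entry 22640, nearly the last of the list. None of these 9 sites was in a mutant FXR list.

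The other lists were counted in the same way. The plasma protein list had 3 of 28 (C3, and Alb with Afp, which share 1 site between them at entry 20578). Gluconeogenesis and amino acid metabolism had 3 of 25 (Hal, Cth and Ass1). Transcription factors and nuclear receptors had 1 of 23, the xenobiotic receptor gene Nr1i2, with a pair of sites in the gene at entries 233 and 15717. Lipid synthesis had 1 of 25, the sterol regulator Srebf2, and clock genes 1 of 20, Per3. Fatty acid oxidation had 0 of 22. The 46 markers of cholangiocytes, Kupffer, endothelial and stellate cells had none. Over all lists, 17 of 225 genes had a site (7.56%), against 1.06% of all protein-coding genes. Beside that share, counts of 0 or 1 in lists of this size tell little, and the absence at markers is not a result about cell types.

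Distances to genes were set beside those of other FXR peaks outside the shared regions. No start site was available on chromosome 18, where 14 of the 320 sites and 793 of all FXR peaks outside shared regions lie. Start sites were missing elsewhere too. The site 8378 bases from Tcim lay 894322 bases from the nearest start site, and the site 29349 bases from Stau2 lay 1946448. All distances to start sites, with the shares over 50 kb below, rest on this incomplete set. Medians and counts within 1 kb of a start site are therefore not given. Over 50 kb from a start site there were 71 sites (22.2%), against 52.0%, with peaks of chromosome 18 counted in the totals only. In the first 500 entries the share over 50 kb away was lower for the sites too, 15.9% against 32.5%. From entry 501 on, it was 16.7% to 31.7% of the sites and 52.1% to 52.4% of the others. Inside a protein-coding gene there were 137 (42.8%), against 36.5%, though the shares were alike in the first 500 entries (49.5% and 49.4%), and 196 (61.2%) were inside or within 10 kb of one, against 45.4%. Exons and introns are not given in the gene table used. The sites were scattered rather than clustered, as joining those within 10 kb of each other left 313 places from 320 sites. Osgin1, Nr1i2 and Macrod2 were among the 7 places with a pair.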

How the data were processed

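The files are lists of peaks, with 1 list per group of samples as the labels give the groups. Reads were aligned with BWA to mm10, per the submitters' processing notes, and PeakSeq called ChIP peaks against input and ATAC regions with ligand against vehicle, per the series text. Values in the deposited lists are positions, with the authors' fold (a ratio over input, or over vehicle for ATAC) in 5 lists and the authors' q-value in 19. The highest q-value is 0.015 in the 2 mutant FXR lists, 0.05 in ATAC and LXR lists and 0.07 in PPAR lists. WT FXR and Foxa2 lists carry neither, so they were used in deposited order. Blank entries in 2 mutant FXR lists were left out. Read depth is unknown.

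Overlap meant 1 base or more. Shared regions are merged ChIP peaks holding all 4 antibodies. Positions are 1-based, on mm10. Genes, promoter windows and sequences came from RefSeq (GRCm38.p6), and the nearest gene was the nearest protein-coding one. No promoter window or start site on chromosome 18 was available, so peaks there could not reach a window. Windows and start sites were also missing for some genes on other chromosomes. Named were the genes of the first 25 sites outside shared regions with a gene within 10 kb, every bile acid or FXR target gene with a site within 10 kb, and the first 10 sites on LXR and PPAR peaks. Sequences were shown for named sites nearest to a Foxa2 centre that reach a promoter window. The sites and gene lists were chosen with earlier results of these data known. Overlap steps were tested on simulated data. Python 3.11.15, pandas 2.3.3, scipy 1.17.1 and matplotlib 3.10.9 were used. The alternatives were other overlap rules, list lengths, shared regions left out and other gene distances. RNA-seq samples were not analysed here.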

Additional observations from a re-analysis of the deposited data

How the results depend on the processing

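The number of FXR peaks on Foxa2 peaks was 381. It was 117 when the whole FXR peak had to lie inside the Foxa2 peak, 230 on the Foxa2 vehicle list and 141 among the first 500 FXR entries, while 6 other settings gave 265 to 487. Without shared regions, the share of sites on an FXR vehicle peak went from 40.2% to 32.8%, and to 26.9% with that list at the length of the mutant GW4064 list, a setting added after seeing the data. The share on a mutant FXR GW4064 peak went from 11.5% to 1.25%. The share on a Foxa2 vehicle peak (53.8% and 50.0%) and in WT GW4064 ATAC regions (18.6% and 16.9%) stayed within the counting interval. Sites on both LXR and PPAR peaks were 52 to 61, and genes of the lists with a site were 14 within 5 kb and 23 within 50 kb, against 17.

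Each group has 1 list, so leaving out a replicate was not possible. No paired analysis was possible because no result comes from a test over samples. The lists differ in length and carry no read counts, so absence from a list does not show absence of binding.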
